A study of Mus musculus with 12 samples.

Results

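The transcripts of the T cell receptor complex and its coreceptors were measured in orthotopic 4T1 tumors, a mouse mammary carcinoma line grown in the mammary fat pad of Balb/c mice. They comprised 10 genes listed by name for their role, with earlier results of these data known, namely Trac, Cd3d, Cd3e, Cd3g, Cd247, Cd4, Cd8a, Cd8b1, Lck and Cd2, out of 55401 genes in the expression table. All 10 were matched to 1 gene each and passed the filter on low values, as did 15504 genes in all. The filter kept genes that reached a TPM (transcripts per 1000000 transcripts) of 1 in 3 or more of the 12 libraries. Every mouse carried a 4T1 tumor, was 6 to 8 weeks old per the study's methods, and was dosed from a tumor volume of 100 mm3. The 4 groups, with 3 tumors and 1 library each, received a control isotype (IgG1-Fc, called control), recombinant IL-10-Fc, an antibody against CSF1R (called aCSF1R), or BF10, in which human IL-10 is fused to the C terminus of a mouse anti-CSF1R antibody. The labels give 6 doses and the series text gives 4, so the number of doses is uncertain. The 4T1 model is a single cell line, and each library is bulk RNA of a whole piece of tumor, in which fewer T cells and less RNA per T cell cannot be told apart. Nothing in the labels says whether the tumors of a group came from separate cohorts, so p-values measure the spread between these tumors.

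The T cell receptor consists of an antigen-binding pair of chains (alpha and beta in most T cells, gamma and delta in a minority) and of CD3 and zeta chains that carry the signal into the cell. The tails of the CD3 chains and of the zeta chain, encoded by Cd247, hold activation motifs whose tyrosines are phosphorylated by the kinase Lck. The coreceptors CD4 and CD8 bind MHC molecules and bring Lck to the receptor, and CD2 is an adhesion receptor that strengthens the contact with the other cell. IL-10 is a cytokine that restrains macrophages and also acts on activated CD8 T cells, and CSF1R is the receptor through which macrophages receive their growth factor. In tumors the transcripts of the receptor complex are read as a sign of infiltrating T cells, with Cd8a and Cd8b1 for cytotoxic and Cd4 for helper and regulatory cells. Some dendritic cells also make Cd8a, and their part in its values was not tested.

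The coding stretches of the activation motifs are shown because they are what the CD3 and zeta transcripts have in common. They were read from the GENCODE transcripts (GRCm38) by searching for a tyrosine and, 3 codons on, a leucine or isoleucine, repeated after 6 to 8 further codons. Capitals mark the tyrosine codons and the leucine or isoleucine codons. Each of Cd3d, Cd3e and Cd3g held 1 such stretch and Cd247 held 3.
Cd3d (chromosome 9, 44986095 to 44986311, plus strand): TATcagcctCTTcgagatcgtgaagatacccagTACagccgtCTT
Cd3e (chromosome 9, 44999549 to 45000440, minus strand): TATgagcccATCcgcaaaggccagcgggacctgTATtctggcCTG
Cd3g (chromosome 9, 44970735 to 44971268, minus strand): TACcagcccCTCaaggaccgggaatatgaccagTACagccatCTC
Cd247 motif 1 (chromosome 1, 165856451 to 165857454, plus strand): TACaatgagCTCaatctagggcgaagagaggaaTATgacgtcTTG
Cd247 motif 2 (chromosome 1, 165858473 to 165859260, plus strand): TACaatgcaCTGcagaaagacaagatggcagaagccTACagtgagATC
Cd247 motif 3 (chromosome 1, 165859819 to 165861042, plus strand): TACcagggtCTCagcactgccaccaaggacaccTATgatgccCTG
Every one of these 6 stretches was split over 2 exons, so the coordinates span an intron.

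The stretches by which the coreceptors hold Lck are shown because they set Cd4 and Cd8a apart from Cd8b1. Capitals mark the cysteine codons of the contact. The Cd4 and Cd8a stretches were each split over 2 exons, so their coordinates span an intron, and that of Lck lay in 1 exon. The motif of a cysteine, any residue, a cysteine and a proline was found in Cd4 and in Cd8a and had 0 matches in the coding sequence of Cd8b1.
Cd4 (chromosome 6, 124866266 to 124866629, minus strand): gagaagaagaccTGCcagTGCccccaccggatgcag
Cd8a (chromosome 6, 71375893 to 71376869, plus strand): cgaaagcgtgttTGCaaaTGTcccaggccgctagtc
Lck (chromosome 4, 129558105 to 129558140, minus strand): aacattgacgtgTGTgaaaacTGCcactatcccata
In the GENCODE annotation Cd3g, Cd3d and Cd3e lay side by side on chromosome 9, at 44969572 to 44980431, 44981786 to 44987339 and 44998740 to 45009627. Cd8b1 and Cd8a were neighbours on chromosome 6, at 71322788 to 71337494 and 71373427 to 71379173, with Cd4 elsewhere on it at 124864692 to 124888221. Cd247 lay on chromosome 1 (165788681 to 165877277), Cd2 on chromosome 3 (101275899 to 101287939), Lck on chromosome 4 (129548344 to 129573641) and Trac on chromosome 14 (54220521 to 54224206).

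The libraries had an estimated depth of 30.2 to 35.4 M reads (M, 1000000) and fell into 2 sets by the sum of their FPKM values, the deposited measure of fragments scaled to transcript length and to mapped fragments. The sum was above 700000 in 5 libraries (control replicates 4 and 7, IL-10-Fc replicate 7, aCSF1R replicate 8 and BF10 replicate 6), called the higher-sum set here, and below it in the other 7. In control replicate 7 the summed TPM of the lymph node list (Glycam1, Ccl21a and 5 further genes) was 469, against 7.73 to 124 elsewhere, and that of the B cell list (Cd79a, Cd79b and 4 further genes) was 70.2, against 0.792 to 6.06. In BF10 replicate 3 the neutrophil list (S100a8, S100a9 and 3 further genes) summed to 16113 TPM, against 410 to 3276 in the other 11 libraries. Macrophage transcripts fell in the aCSF1R tumors, the check of the antibody given alone: C1qa was 3.98 lower on the log2 scale than in control (log2 difference -3.98 ± 0.37, SE; limma adjusted p = 0.000685).

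The 10 transcripts were low to moderate in these tumors. Averaged over 12 libraries and per length, Trac was at 11 TPM, Cd3g at 8.14, Lck at 6.43, Cd3d at 5.2, Cd8a at 4.56, Cd3e at 3.82, Cd8b1 at 3.74, Cd247 at 3.48, Cd2 at 2.73 and Cd4 at 1.16. The median of the tested genes was 13.2 TPM, and 45.9% of them lay below Trac and 8.48% below Cd4. The ranges over the libraries overlapped between every pair of neighbours in this order. The ends stood apart: the lowest Trac value, 4.07 TPM, and the lowest Cd3g value, 4.36 TPM, were above the highest Cd4 value, 3.30 TPM. Summed over the 10 genes, the level ran from 19.6 TPM in aCSF1R replicate 8 to 82.8 TPM in BF10 replicate 3.

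None of the 10 transcripts passed the threshold in any comparison. By limma, with a Benjamini-Hochberg adjusted p below 0.05 and a change of at least 1.5-fold, 0 of 10 were called in BF10 against control (0.0% of all tested genes were), 0 of 10 in IL-10-Fc against control (0.00645%), 0 of 10 in aCSF1R against control (0.568%), 0 of 10 in BF10 against IL-10-Fc (0.0%), 0 of 10 in BF10 against aCSF1R (0.735%) and 0 of 10 in IL-10-Fc against aCSF1R (0.542%). The IL-10 effect, the mean of the BF10 and IL-10-Fc tumors minus the mean of the aCSF1R and control tumors (6 against 6), also called 0 of 10, against 0.142% of all genes. At an unadjusted p below 0.05 the count was again 0 of 10 in each of the 7 comparisons, while 42 to 687 of all tested genes were below it. With so few calls over all genes, a count of 0 among 10 is near the background and says nothing particular about these transcripts.

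**Figure D1:**
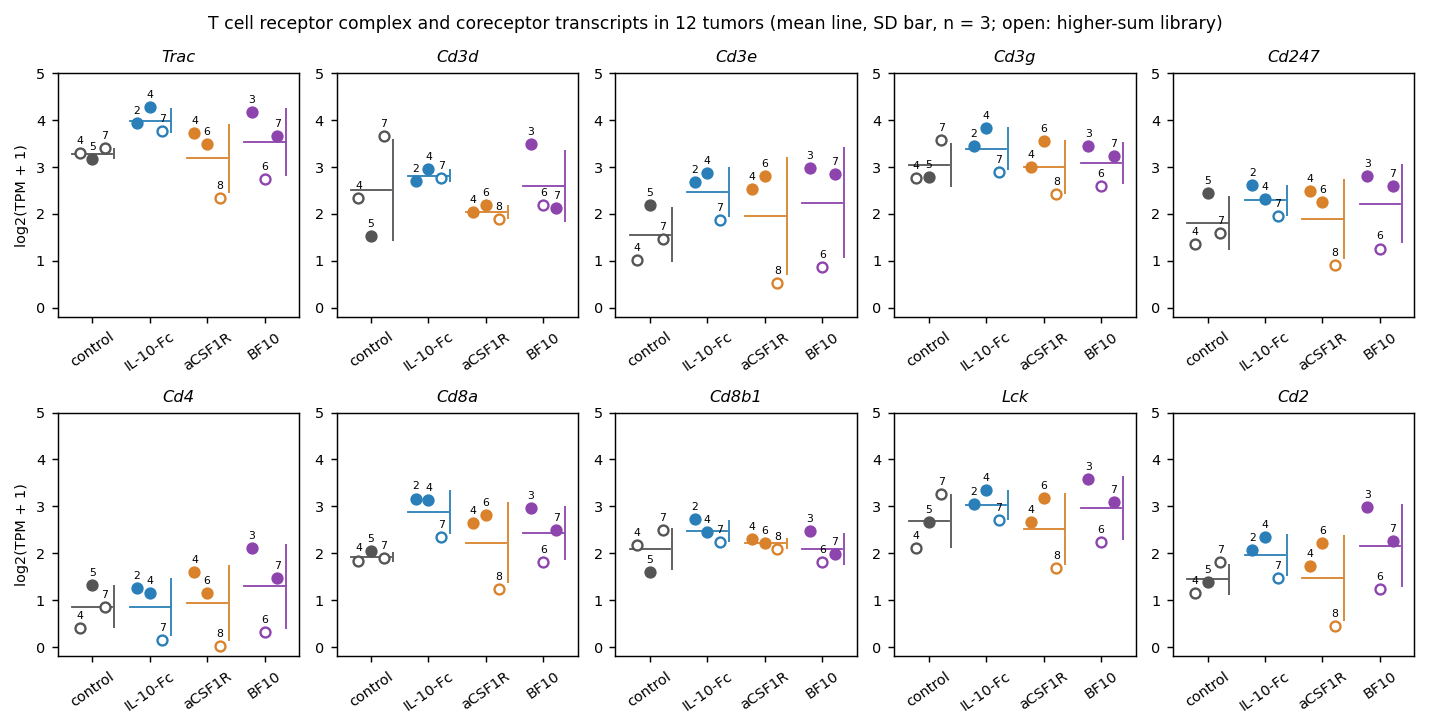
Level of each transcript, as log2(TPM + 1), in the 12 tumors by group, with the replicate number over each point, the mean as a line and the SD as a bar (n = 3); open points are libraries of the higher-sum set. In Cd3e, Cd247 and Cd4 all open points lie below all filled points, and the groups overlap in most panels.

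Trac, the constant region of the receptor's alpha chain, was at 8.79, 8.0 and 9.56 TPM in the control tumors (replicates 4, 5 and 7), 14.2, 18.4 and 12.6 TPM in the IL-10-Fc tumors (2, 4 and 7), 12.1, 10.2 and 4.07 TPM in the aCSF1R tumors (4, 6 and 8), and 17.1, 5.70 and 11.6 TPM in the BF10 tumors (3, 6 and 7). The 3 IL-10-Fc tumors were above every control and every aCSF1R tumor, and BF10 spanned nearly the whole range. The difference of IL-10-Fc from control was 0.70 ± 0.43 on the log2 scale (SE, n = 3; limma adjusted p = 0.738), and from aCSF1R it was 0.81 ± 0.43 (adjusted p = 1).

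Of the CD3 chains, Cd3d was at 4.03, 1.89 and 11.7 TPM in control, 5.53, 6.82 and 5.81 for IL-10-Fc, 3.14, 3.56 and 2.71 for aCSF1R, and 10.2, 3.57 and 3.37 for BF10. Its highest value was that of control replicate 7, the library with the lymph node transcripts, and the IL-10-Fc tumors did not overlap the aCSF1R tumors. That difference was 0.77 ± 0.52 (SE; limma adjusted p = 1). Cd3g was at 5.83, 5.86 and 11 TPM in control, 9.97, 13.2 and 6.46 for IL-10-Fc, 7.02, 10.8 and 4.36 for aCSF1R, and 9.87, 5.04 and 8.37 for BF10. All 4 groups overlapped for Cd3g, with control replicate 7 again the highest of its group.

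Cd3e was at 1.03, 3.54 and 1.77 TPM in control, 5.40, 6.28 and 2.63 for IL-10-Fc, 4.81, 5.99 and 0.434 for aCSF1R, and 6.93, 0.832 and 6.24 for BF10. Within each of the 4 groups the libraries of the higher-sum set were the low ones, and the groups overlapped. Cd247, the zeta chain, followed the same pattern, at 1.58, 4.48 and 2.0 TPM in control, 5.12, 3.98 and 2.87 for IL-10-Fc, 4.63, 3.74 and 0.879 for aCSF1R, and 6.05, 1.40 and 5.0 for BF10. Its groups overlapped as well, with the low values again in the higher-sum libraries. Cd247 is also used by NK cells, whose list (Ncr1, Klrb1c and 4 further genes) summed to 4.62 to 15 TPM and was highest in aCSF1R replicate 8, where Cd247 was lowest. Most of that sum was Ncr1, at 11.6 TPM. Klre1 was at 1.90 TPM there, near its highest of 2.21, whereas Klrb1c (0.890) and Eomes (0.586) were well below their highest of 3.32 and 1.46. The part of NK cells in Cd247 was not tested.

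Cd8a, the CD8 alpha chain, was at 2.59, 3.13 and 2.72 TPM in control, 7.98, 7.74 and 4.09 for IL-10-Fc, 5.22, 6.02 and 1.35 for aCSF1R, and 6.80, 2.52 and 4.63 for BF10. The IL-10-Fc tumors, at 6.60 ± 2.18 TPM (SD, n = 3), lay above every control tumor, at 2.81 ± 0.28 TPM. This was the widest difference of any of the 10 transcripts in the 7 comparisons, 0.95 ± 0.46 on the log2 scale (SE; 95% interval -0.05 to 1.96; limma adjusted p = 0.738). Cd8b1, the CD8 beta chain, was at 3.49, 2.05 and 4.67 TPM in control, 5.59, 4.49 and 3.72 for IL-10-Fc, 3.97, 3.67 and 3.24 for aCSF1R, and 4.55, 2.51 and 2.93 for BF10. It varied least of the 10 transcripts, and all groups overlapped.

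Cd4 was at 0.325, 1.51 and 0.809 TPM in control, 1.38, 1.23 and 0.102 for IL-10-Fc, 2.03, 1.23 and 0.0217 for aCSF1R, and 3.30, 0.241 and 1.77 for BF10. The estimated number of reads behind these values was 2 in aCSF1R replicate 8 and 8 in IL-10-Fc replicate 7, against 20 to 204 in the others, so the 2 lowest values carry a wide counting error. All groups overlapped, and each contained a library near the bottom of the range.

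Lck was at 3.34, 5.38 and 8.60 TPM in control, 7.29, 9.16 and 5.53 for IL-10-Fc, 5.35, 8.09 and 2.19 for aCSF1R, and 11, 3.71 and 7.55 for BF10. Cd2 was at 1.23, 1.60 and 2.51 TPM in control, 3.19, 4.07 and 1.76 for IL-10-Fc, 2.31, 3.67 and 0.358 for aCSF1R, and 6.93, 1.36 and 3.8 for BF10. For both genes BF10 replicate 3 was the highest library and aCSF1R replicate 8 the lowest, and all groups overlapped.

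The IL-10-Fc tumors lay wholly above control for 2 of 10 transcripts, Cd8a and Trac, and 4.75% of all tested genes did so (1.78% lay wholly below). Against aCSF1R the IL-10-Fc tumors were wholly above for 2 of 10, Trac and Cd3d, and 5.90% of all tested genes were (1.60% below). BF10 stood wholly apart from control for 0 of 10 (2.36% of all genes above, 1.17% below), from IL-10-Fc for 0 of 10 (0.619% above, 1.51% below) and from aCSF1R for 0 of 10 (4.33% above, 1.58% below). The aCSF1R tumors stood apart from control for 0 of 10 (1.61% above, 3.68% below), and so did the 6 IL-10 tumors from the other 6 (0.206% above, 0.058% below).

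Which transcripts stood apart depended on the libraries and the scale. Without control replicate 7, 7 of 10 transcripts were wholly above control in IL-10-Fc (Trac, Cd3d, Cd3g, Cd8a, Cd8b1, Lck and Cd2), as were 895 of the 15504 genes. Without BF10 replicate 3, Trac, Cd3d and Cd8b1 were wholly lower in BF10 than in IL-10-Fc, as were 1005 of all genes. Overlap was read with only these libraries left out, those with the lymph node and the neutrophil transcripts. A smaller group stands apart more easily. Between IL-10-Fc and control 6.53% of all genes did so in either direction, and 8.91% without control replicate 7. With TPM divided by median-of-ratios size factors, which set the typical gene equal between libraries, the transcripts above control in IL-10-Fc were Cd8a and Cd3e, those above aCSF1R were Cd8a and Trac, and Cd8b1 was wholly lower in BF10 than in IL-10-Fc. On that scale 651, 951 and 159 of the 15504 genes stood apart in these directions.

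The median difference of the 10 transcripts was read against that of all tested genes, since the latter was not at 0. In BF10 against control it was 0.35 on the log2 scale and that of all genes 0.32, with 9 of 10 above 0 and 5 of 10 above the median of all genes. The transcripts ran from -0.01 ± 0.30 (SE) for Cd8b1 to 0.71 ± 0.53 for Cd2. Without BF10 replicate 3, the library with the neutrophil transcripts, the median of the 10 was 0.00433 and 3 of 10 were above the median of all genes, 0.20. Without BF10 replicate 6 the median of the 10 was 0.73, and 7 of 10 were above the median of all genes, 0.51. On the median-of-ratios scale the median of the 10 was 0.04, with 5 of 10 above 0.

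In IL-10-Fc against control the median of the 10 was 0.44 and that of all genes 0.35, with 9 of 10 transcripts above 0 and 6 of 10 above the median of all genes. The lowest was Cd4, at -0.01 ± 0.53, and the highest Cd8a. On the median-of-ratios scale the median was 0.08, with 5 of 10 above 0. Without control replicate 7 the median of the 10 was 0.66 and that of all genes 0.22, and 9 of 10 transcripts were above the latter.

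In aCSF1R against control the 10 transcripts were at a median of 0.04, which turned to -0.22 on the median-of-ratios scale, and all genes at 0.24. Of the 10, 6 were above 0 and 2 above the median of all genes. They ran from -0.47 ± 0.52 for Cd3d to 0.40 ± 0.70 for Cd3e. Their median was 0.15 without control replicate 7, with 7 of 10 above the median of all genes, and 0.42 without aCSF1R replicate 8, with 3 of 10 above it. It turned to -0.13 without control replicate 4 (all genes 0.10) and to -0.07 without control replicate 5 (all genes 0.49). It was -0.17 without aCSF1R replicate 4 (all genes 0.08) and -0.18 without aCSF1R replicate 6 (all genes 0.06).

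In BF10 against IL-10-Fc the median of the 10 was -0.22 (all genes -0.05), with 2 of 10 transcripts above 0, from -0.46 ± 0.43 for Trac to 0.44 ± 0.53 for Cd4. It turned to 0.15 without BF10 replicate 6, where all genes were also at 0.15, and was -0.53 without BF10 replicate 3 (all genes -0.13). In BF10 against aCSF1R it was 0.34 (all genes 0.06), with 9 of 10 above 0, from -0.12 ± 0.30 for Cd8b1 to 0.70 ± 0.53 for Cd2. It turned to -0.12 without aCSF1R replicate 8 (all genes -0.26) and to -0.01 without BF10 replicate 3 (all genes -0.03). IL-10-Fc against aCSF1R gave 0.50 (all genes 0.11), with 9 of 10 above 0 and Cd4 at -0.08 ± 0.53, and 0.11 without aCSF1R replicate 8 (all genes -0.21). These comparisons share groups and are not independent of each other.

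For the IL-10 effect, all 10 transcripts were above 0, with a median of 0.42 against 0.22 for all genes, and 8 of 10 were above the latter. The difference was 0.60 ± 0.37 for Cd2 (SE, 6 against 6; 95% interval -0.22 to 1.43), 0.60 ± 0.49 for Cd3e (-0.49 to 1.69), 0.58 ± 0.32 for Cd8a (-0.14 to 1.29) and 0.52 ± 0.31 for Trac (-0.15 to 1.2). It was 0.43 ± 0.37 for Cd3d, 0.42 ± 0.37 for Cd247, 0.41 ± 0.34 for Lck, 0.22 ± 0.29 for Cd3g, 0.18 ± 0.38 for Cd4 and 0.13 ± 0.22 for Cd8b1. Every 95% interval included 0, and the smallest limma adjusted p was 0.820. The intervals still allow a difference of more than 1 on the log2 scale for 8 of the 10, all but Cd3g and Cd8b1. On the median-of-ratios scale 8 of 10 were above 0, with Cd3g at -0.05 and Cd8b1 at -0.13. The median of the 10 was 0.26 on leaving out BF10 replicate 3 (all genes 0.16) and 0.22 on leaving out aCSF1R replicate 8 (all genes 0.04). It was 0.62 once BF10 replicate 6 was dropped (all genes 0.32). Of the 10, 7, 9 and 9 were above the median of all genes, in this order. The difference between the IL-10 effect with the antibody and without it passed the threshold for 0 of 10 transcripts (limma interaction; 0.29% of all tested genes passed), with values from -0.75 ± 0.64 for Cd8a to 0.38 ± 0.76 for Cd4.

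**Figure D2:**
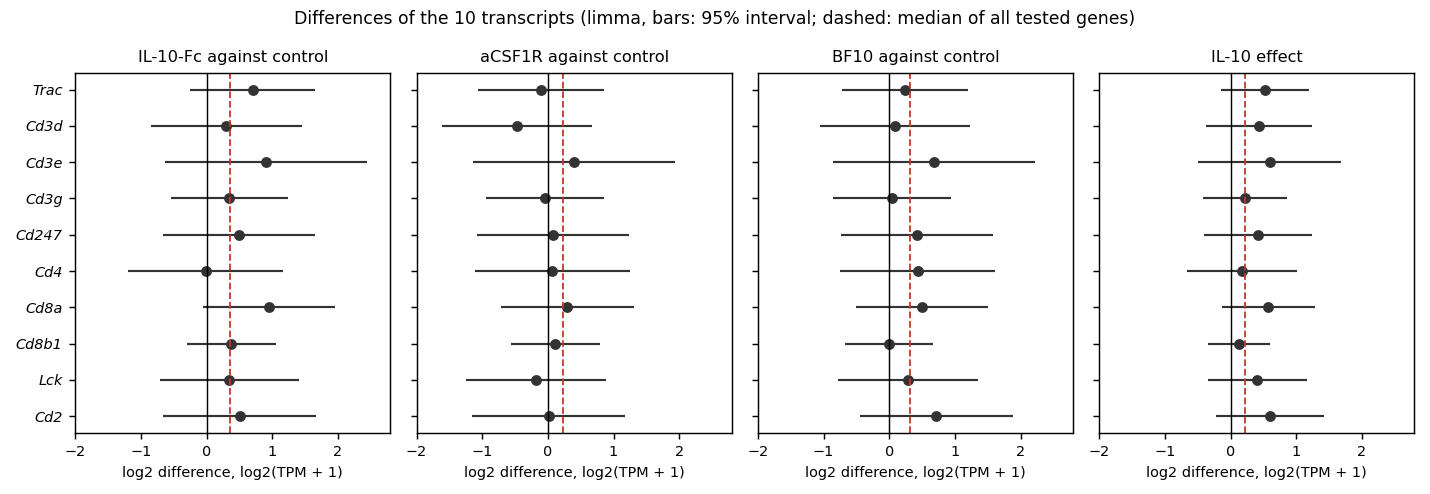
Log2 difference of each transcript on the log2(TPM + 1) scale in 4 comparisons, with 95% intervals from limma; the dashed line is the median of all tested genes. All intervals include 0, and for the IL-10 effect all 10 points lie above 0 (8 of 10 on the median-of-ratios scale) and 8 of them above the dashed line at 0.22.

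The 10 transcripts also differed between the library sets. With the library set as a term beside the group, 7 of 10 were called lower in the higher-sum libraries and 0 of 10 higher, while 54.0% of all tested genes were called lower and 5.23% higher, with a median of -0.68 over all genes. The sets were defined from these data, so this describes the libraries and not a treatment. Cd3e (-1.51 ± 0.22, SE), Cd4 (-1.15 ± 0.19) and Cd247 (-1.10 ± 0.17) were the lowest, and for each of them all 5 higher-sum libraries were below all 7 lower-sum ones. Cd3g (-0.49 ± 0.23), Cd8b1 (-0.06 ± 0.20) and Cd3d (0.14 ± 0.37) did not pass. Relative to the median of all genes, Cd3e was at -0.83 while its neighbour Cd3d was at 0.82, and Cd8a was at -0.16 while its neighbour Cd8b1 was at 0.63.

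On the median-of-ratios scale, on which the median of all genes was -0.02, 2 of 10 were called lower, Cd3e (-0.95 ± 0.21) and Cd4 (-0.83 ± 0.19), and Cd8b1 was called higher (0.63 ± 0.22). On that scale 19.7% of all genes were called lower and 23.4% higher. With the library set as a term, 0 of 10 transcripts were called in any of the 7 treatment comparisons, and at most 2 had an unadjusted p below 0.05. Over all 15504 genes, 0 to 437 were called and 141 to 1843 had an unadjusted p below 0.05. With control replicate 7 left out as well, 0 of 10 were called. At most 4 then had an unadjusted p below 0.05, for the IL-10 effect, as did 1709 of all genes. What separates the library sets is not given in the labels, and its part in the differences between groups was not tested.

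Within the 7 lower-sum libraries, of which control replicate 5 was the only control, all 10 transcripts were above control in BF10, with a median of 0.67 against -0.05 for all genes. The median was 0.84 in IL-10-Fc, with 9 of 10 above 0, and 0.50 in aCSF1R, with 9 of 10 above 0 (all genes -0.07 and 0.02). It was 0.06 for BF10 against IL-10-Fc, 0.32 for BF10 against aCSF1R, 0.30 for IL-10-Fc against aCSF1R and 0.47 for the IL-10 effect. The values against control rest on a single control tumor, which the IL-10 effect includes as well. From the fit to these libraries they are therefore given as sizes only, without p-values.

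Within the 5 higher-sum libraries, 2 controls and 1 tumor of each treated group, the direction against control was another one. All 10 transcripts were below the control mean in BF10, with a median of -0.41 against 0.18 for all genes, and all 10 in aCSF1R, with a median of -0.74 against -0.16. Control replicate 7, the library with the lymph node transcripts, was 1 of the 2 controls. Against control replicate 4, BF10 replicate 6 was higher for Lck (3.71 against 3.34 TPM) and Cd2 (1.36 against 1.23) and lower for the rest. By contrast, aCSF1R replicate 8 was below control replicate 4 for every transcript. In IL-10-Fc 5 of 10 were above control, with a median of -0.0012 against 0.33 for all genes. The median was -0.50 for BF10 against IL-10-Fc (all genes -0.14), 0.35 for BF10 against aCSF1R (all genes 0.35), 1.03 for IL-10-Fc against aCSF1R (all genes 0.52) and 0.34 for the IL-10 effect (all genes 0.35). Each treated arm is 1 tumor, so these are values with no test. The median differences of BF10 and of aCSF1R from control thus had opposite signs in the library sets, with control replicate 7 only in the higher-sum set. Whether these differences differ between the sets was not tested.

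The ratio of Cd8a to Cd4 was computed per tumor because both genes lie in the same libraries, and it was 7.97, 2.07 and 3.36 in control, 5.77, 6.28 and 40.0 for IL-10-Fc, 2.57, 4.89 and 62.0 for aCSF1R, and 2.06, 10.45 and 2.61 for BF10. The highest value in each group came from a higher-sum library, and those of 40.0 and 62.0 rest on 8 and 2 estimated Cd4 reads. On the log2 scale the ratio was 1.93 ± 0.98 in control, 3.50 ± 1.58 for IL-10-Fc, 3.20 ± 2.43 for aCSF1R and 1.94 ± 1.26 for BF10 (SD, n = 3). IL-10-Fc against control gave a difference of 1.57 (two-sided exact permutation p = 0.3, Benjamini-Hochberg adjusted over 14 tests 0.84; 3 against 3 tumors cannot give a p below 0.1). This difference was 0.66 without IL-10-Fc replicate 7, the library with 8 Cd4 reads. BF10 against control gave 0.01 (exact permutation p = 1), and the IL-10 effect gave 0.15 (exact permutation p = 0.88, smallest possible 0.005). With the library sets apart, the log2 ratio was 3.88 ± 1.73 in the 5 higher-sum and 1.76 ± 0.70 in the 7 lower-sum libraries.

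The ratio of Cd8b1 to Cd8a compares the chains of the CD8 heterodimer. It was 1.35, 0.655 and 1.72 in control, 0.701, 0.580 and 0.909 for IL-10-Fc, 0.760, 0.610 and 2.41 for aCSF1R, and 0.669, 0.995 and 0.634 for BF10. All 5 higher-sum libraries, with a log2 ratio of -0.14 to 1.27, were above all 7 lower-sum libraries, at -0.79 to -0.40, whatever the treatment. IL-10-Fc against control differed by -0.68 and BF10 against control by -0.61 (exact permutation p = 0.3 for each), and the IL-10 effect was -0.57 (exact permutation p = 0.155, adjusted 0.84). Of the 14 exact permutation tests of both ratios, those of 3 against 3 tumors cannot give a p below 0.1. Only the tests of the IL-10 effect could fall below 0.05, and neither did, before or after adjustment. Their exact permutation p was 0.88 for Cd8a to Cd4 and 0.155, the smallest of the 14, for Cd8b1 to Cd8a.

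**Figure D3:**
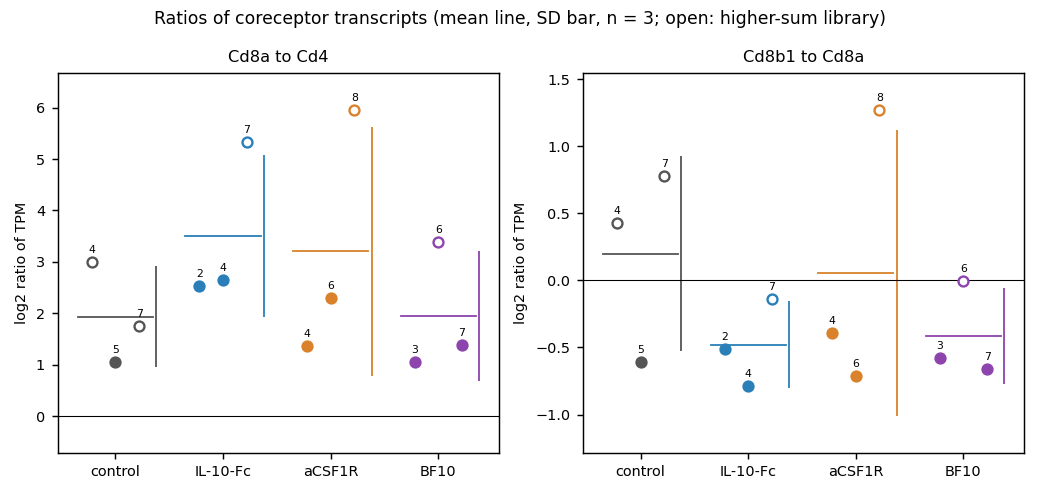
Log2 ratio of TPM values for Cd8a to Cd4 (left) and Cd8b1 to Cd8a (right) in each tumor, by group, with the mean as a line and the SD as a bar (n = 3); open points are higher-sum libraries. On the right every open point, at -0.14 or above, lies above every filled point, at -0.40 or below.

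Most pairs of the 10 transcripts varied together over the 12 libraries, and every pair with a Pearson's r below 0.5 included Cd3d or Cd8b1. Over the 45 pairs Pearson's r of log2(TPM + 1) over the 12 libraries had a median of 0.75, and it was above 0.5 in 37 pairs. The closest pair was Cd3e and Cd247 (0.96), the pair of Lck and Cd2 stood at 0.95, and the loosest was Cd3d and Cd247 (0.14). After each library set was centred on its own mean, the median was 0.70, Cd3d and Cd3e went from 0.21 to 0.72, and Cd4 and Cd8a went from 0.71 to 0.09. Cd3d was then above 0.5 with every other transcript, from 0.55 with Cd247 to 0.90 with Lck. Cd4 was at 0.26 with Cd8b1 and 0.33 with Trac. All these values share the same libraries and the same scaling, so they describe the 12 tumors only.

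**Figure D4:**
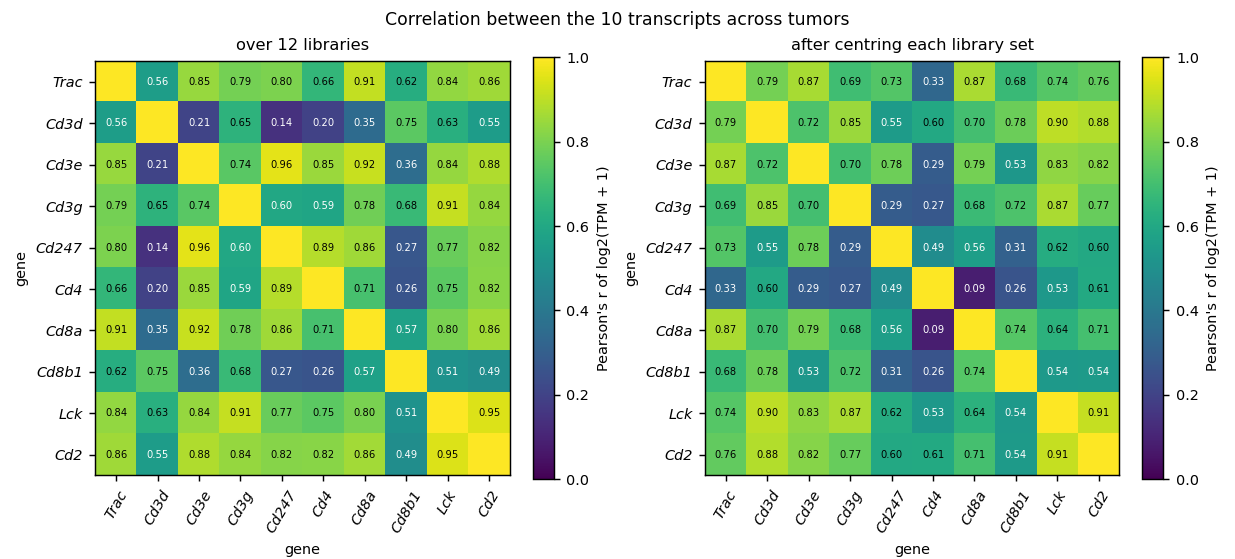
Pearson's r between the 10 transcripts over 12 libraries (left) and after centring each library set (right), on a colour scale from 0 to 1. On the left every pair below 0.5 includes Cd3d or Cd8b1, with 0.14 for Cd3d and Cd247. On the right Cd4 and Cd8a are the loosest pair, at 0.09.

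Outside the set, the 5 tested genes most like its mean log2 level were Cd27 (r = 0.968 over 12 libraries), Lat (0.967), Ubash3a (0.955), Gimap3 (0.951) and Prkcq (0.951). Lat is the adaptor that the receptor's kinases phosphorylate, and Prkcq encodes protein kinase C theta of the same pathway. Lat was at 2.32, 2.35 and 4.47 TPM in control, 5.2, 4.73 and 2.78 for IL-10-Fc, 3.19, 3.81 and 1.09 for aCSF1R, and 6.52, 1.89 and 3.71 for BF10, low again in aCSF1R replicate 8 and BF10 replicate 6.

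The rest of the pathway was read from 46 genes in 3 lists, of which 38 were tested. Of the receptor's other constant chains (6 genes, 5 tested) 0 passed in any comparison, and their directions differed in part from those of the 10 transcripts. Their median log2 difference was -0.24 in BF10 against control, with 0 of 5 above 0 (all genes 0.32). It was -0.18 in IL-10-Fc against control, with 1 of 5 above 0 (all genes 0.35), and 0.03 for the IL-10 effect, with 3 of 5 above 0 (all genes 0.22). Against aCSF1R it was 0.25 in BF10 and 0.28 in IL-10-Fc, with 4 of 5 above 0 in each. The beta chain constant regions Trbc1 and Trbc2 averaged 12.7 and 14.8 TPM and were highest in control replicate 7, at 22 and 34.8 TPM, whereas Trdc of the delta chain averaged 0.328 TPM. Control replicates 4 and 5 were at 12.4 and 9.43 TPM for Trbc1 and at 13.8 and 9.56 TPM for Trbc2. IL-10-Fc spanned 9.74 to 13.5 TPM and 13.8 to 15.8 TPM, and BF10 spanned 9.23 to 19.2 TPM and 9.11 to 22.3 TPM. The medians of this list were not read without control replicate 7. Trbc1 and Trbc2 are near-identical, so the split of reads between them is uncertain. Of the proximal signalling genes (22 genes, 18 tested) 1 passed in 1 comparison: Ptprc, the phosphatase CD45 of all white blood cells, was higher in BF10 than in aCSF1R by 1.55 ± 0.30 (limma adjusted p = 0.0428). Ptprc was at 72.1, 40.4 and 37.5 TPM in BF10 and at 16.7, 15 and 15.3 TPM in aCSF1R, with no overlap. The difference kept its size under other settings, at 1.41 on the median-of-ratios scale and 1.26 to 1.72 with a library left out. Its call was lost on that scale (limma adjusted p = 0.477), on FPKM without rescaling (0.0926), without the filter (0.0776), under a replicate block (0.773), in the lower-sum libraries (0.159) and on leaving out any library but control replicate 5 (0.0563 to 0.183), and it was kept with the library set as a term (0.00678). Macrophages also express Ptprc, and their list summed to 42.8 to 194 TPM in aCSF1R against 1028 to 1242 in BF10; the part of macrophages in it was not tested. Of the second signals and further genes (18 genes, 15 tested), led by Thy1 and Bcl10 at 204 and 46.2 TPM, 0 passed in any comparison.

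Markers of other cells were read in the same fits. Of the macrophage list (6 tested) 4 genes fell in aCSF1R against control, with C1qa at -3.98, C1qb at -3.47, Mrc1 at -2.96 and Adgre1 at -2.05, and the same 4 genes were called higher in both other treated groups than in aCSF1R. In BF10 against control, although BF10 holds an anti-CSF1R antibody, 0 of 6 were called. There 4 of 6 were above 0, with a median of 0.36 (all genes 0.32). Of the NK cell (4 tested), B cell (2), dendritic cell (4, led by Zbtb46 and Cd209a), neutrophil (5), lymph node (4) and epithelial lists (5, led by Krt18 and Krt8), 0 genes passed in any of the 7 comparisons.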

How the data were processed

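Per the labels and the study's methods, the authors made stranded libraries from polyadenylated RNA and aligned reads to mm10. Their processing notes name STAR 2.7.5a, RSEM 1.3.3 and DESeq2 1.28.0. The authors deposited FPKM values of 12 libraries. Their 4 comparison tables hold deposited log2 fold changes, p-values and a mean count score, and were not used.

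Since FPKM is not a count, no test for counts was used. The values were rescaled to 1000000 per library (TPM) and tested as log2(TPM + 1), which understates changes of low genes, with limma 3.58.1 in R 4.3.3 (all 12 libraries, 1 mean per group, eBayes with trend, 8 residual degrees of freedom, Benjamini-Hochberg over 15504 genes). Depth was estimated from the steps between low FPKM values. Ratios were compared by exact permutation. The fit was tested on simulated data. The 10 genes, the lists, the boundary of the library sets and the naming rule (all members, list genes past the threshold or the 2 most abundant, the 5 most alike) were chosen with earlier results of these data known. Alternatives were other scalings, a pseudocount of 0.1, no filter, no minimum fold, no trend, the library set, a replicate block and leaving out each library. The set term without control replicate 7, the 7 lower-sum and the 5 higher-sum libraries alone and the other readings of the sets were chosen after seeing the data.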

Additional observations from a re-analysis of the deposited data

How the results depend on the processing

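Of the 10 transcripts, 0 passed the threshold in each of the 7 comparisons under every alternative that gave a test, including each library left out (limma throughout). The p-values therefore say little about stability, and the directions below belong to differences that passed no test. Counting error is wide for Cd4, at 2 to 204 estimated reads a library, and for Cd2, at 11 to 152, and 3 tumors a group limit all intervals. In the lower-sum libraries (3 residual degrees of freedom) the lone control is assumed to vary like the other groups. In the higher-sum libraries, where values have no test, the median of the 10 transcripts was -0.41 in BF10 against control, -0.74 in aCSF1R against control and 1.03 in IL-10-Fc against aCSF1R.

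Nothing in the labels says that the replicate numbers groups share mark pairs. Over 7 pairs of same-numbered libraries the correlation of their deviations from the group means was 0.35 and 0.42 in the 2 pairs within a library set and -0.66 to -0.26 in the 5 pairs across the sets, so this check follows the sets and does not settle the pairing. The fit with a replicate block left 2 residual degrees of freedom against 8 and called 0 of 10 in every comparison. Under this replicate block the median of the 10 transcripts went from 0.04 to 0.61 in aCSF1R against control, from 0.34 to -0.46 in BF10 against aCSF1R and from 0.50 to -0.093 in IL-10-Fc against aCSF1R, and that of the IL-10 effect from 0.42 to -0.018, with 5 of 10 transcripts above 0. In BF10 against aCSF1R 0 of 10 were above 0 under the block, against 9 of 10 without it. The median of all genes moved under the block as well. It was 0.93 in aCSF1R against control, -0.34 in BF10 against aCSF1R, -0.40 in IL-10-Fc against aCSF1R and 0.09 for the IL-10 effect. Of the 10 transcripts, 4, 2, 7 and 3 were above it, in this order. The block also turned Cd4 in IL-10-Fc against control (0.019), Cd2 in BF10 against aCSF1R (-0.33) and, for the IL-10 effect, Cd3d (-0.16), Cd3g (-0.14), Cd4 (-0.21), Cd8b1 (-0.20) and Lck (-0.081).

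Other settings turned the sign of further differences, and the cause was not tested. In aCSF1R against control these included the lowest and the highest of the 10, Cd3d (-0.47) and Cd3e (0.40). A pseudocount of 0.1 gave 0.000882 for Cd8b1 in BF10 against control and 0.070 for Cd4 in IL-10-Fc against aCSF1R. Median-of-ratios scaling gave -0.045 for Cd3g and -0.13 for Cd8b1 in the IL-10 effect. The library set as a term gave -0.11 for Cd3e in aCSF1R against control, -0.014 for Cd4 in the IL-10 effect, and 0.20 for the log2 ratio of Cd8b1 to Cd8a in aCSF1R against control. With control replicate 7 left out as well, Cd8b1 in BF10 against control was 0.18 and Cd3d in aCSF1R against control 0.10. In the lower-sum libraries these were 0.62 and 0.59.

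With each library left out in turn, the log2 difference ran from -0.25 to 0.20 for Cd8b1 and BF10 against control, from -0.24 to 0.34 for Cd4 and IL-10-Fc against control, from -0.96 to 0.11 for Cd3d and from -0.030 to 1.11 for Cd3e and aCSF1R against control, from -0.31 to 0.017 for Cd8b1 and BF10 against aCSF1R, from -0.53 to 0.28 for Cd4 and IL-10-Fc against aCSF1R, and from -0.048 to 0.42 for Cd4 and the IL-10 effect. The log2 ratio of Cd8a to Cd4 ran from -0.72 to 0.54 (BF10 against control), 0.66 to 2.10 (IL-10-Fc against control), -0.11 to 2.19 (aCSF1R against control), -2.18 to 0.11 (BF10 against aCSF1R), -0.62 to 1.67 (IL-10-Fc against aCSF1R) and -0.31 to 0.84 (IL-10 effect). That of Cd8b1 to Cd8a ran from -1.02 to -0.32 (BF10 against control), -1.08 to -0.39 (IL-10-Fc against control), -0.75 to 0.24 (aCSF1R against control), -0.14 to 0.24 (BF10 against IL-10-Fc), -0.85 to 0.14 (BF10 against aCSF1R) and -0.92 to 0.075 (IL-10-Fc against aCSF1R).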
